A study of Mus musculus with 9 samples.

Results

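Adipocyte progenitors are recognised by proteins on their surface, and 10 genes for such markers were followed in epididymal white adipose tissue (eWAT), the fat pad beside the mouse epididymis: Pdgfra, Pdgfrb, Dpp4, Pi16, Ly6a, Cd34, Cd55, Cd81, Anxa3 and Clec3b. They were chosen by name, and each matched 1 of the 28481 genes in the deposited table. Bulk RNA sequencing had been done on 5 Control libraries and 4 UBKO libraries. Per the labels, UBKO carries a Ctnnb1 knockout driven by a Cre recombinase under the Ucp1 promoter, and both groups had received CL316,243, an agonist of the beta3-adrenergic receptor that drives lipolysis and browning of fat. Ctnnb1 encodes beta-catenin, the effector of canonical Wnt signalling. The Ucp1 promoter that drives this Cre is active in thermogenic adipocytes. The sources used here do not give the age or sex of the mice, the alleles of the Control mice or the dose. Nor do the labels say whether each library is a different animal, and p-values therefore cover the spread between libraries alone, which may be technical.

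White fat is renewed from fibroblast-like cells in its stroma. The receptor PDGFRα marks these cells broadly, whereas PDGFRβ also marks mural cells around vessels. In mouse subcutaneous fat, cells with DPP4, PI16, CD55 and ANXA3 have been placed in the connective tissue around the pad, upstream of preadipocytes already committed to the adipocyte fate, and CLEC3B is made by stromal fibroblasts. Sca-1 (the product of Ly6a), CD34 and CD81 are used to sort progenitors, and endothelial or immune cells carry some of them as well. In bulk tissue, fewer cells of a type and less RNA per cell cannot be told apart.

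Libraries held 15308480 to 17632709 gene counts, and levels are given as CPM (gene counts relative to a library's size) scaled by TMM, a method that evens out composition between libraries. Control 1 and Control 2 stood apart, with 3.01% and 2.66% of their counts on a list of epididymis and testis genes, against at most 0.000765% in the others. The difference of each marker is therefore also given without them, and other values where leaving them out changed what they showed. Ctnnb1 ranged from 276 to 360 CPM in the Control libraries and was 180, 210, 307 and 199 CPM in UBKO 1 to 4. The library labelled UBKO 3 lay within the Control range, and the difference over all libraries did not pass (log2 difference −0.48, edgeR adjusted p = 0.0976). Without UBKO 3 the difference was −0.66 (edgeR adjusted p = 0.0328), the 1 call among 9 fits that left out 1 library. UBKO 3 was singled out by its own Ctnnb1 value, so a smaller p without it gives no support. The difference also passed with DESeq2 (adjusted p = 0.0481), under scaling by total counts (edgeR adjusted p = 0.0123) and with limma on log2 FPKM (adjusted p = 0.00806 and 0.00783 with a pseudocount of 1 and 0.1). It did not pass in edgeR with DESeq2 size factors (adjusted p = 0.106), no filter (0.166) or a replicate block (0.160). Nor did it with limma and array weights (adjusted p = 0.131) or by the authors' deposited q-value (0.404). Without Control 1 and 2 the Ctnnb1 difference was −0.36 (edgeR adjusted p = 0.289). Genes of the mitochondrial chromosome took 8.78% to 17.8% of the counts in Control and 20.1% to 25.4% in UBKO libraries. Under scaling by total counts the median gene differed by −0.39 on the log2 scale between the groups, against −0.0055 under TMM, and the markers are read under both.

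Pdgfra, Cd55 and Clec3b were lower in UBKO fat, and the other markers did not pass the test. Mean levels were 2.85-fold higher in Control than in UBKO libraries for Pdgfra, 2.84-fold for Cd55 and 1.74-fold for Clec3b. All 10 markers passed the filter on low counts. Of them 3 were called lower and 0 higher, whereas 7.56% of the 16123 genes tested were called lower and 3.88% higher (edgeR quasi-likelihood test, Benjamini-Hochberg adjusted over all genes, 0.05). At an unadjusted p under 0.05, 4 markers were lower and 0 higher, beside 16.1% and 12.4% of genes. DESeq2 called 3 markers lower and 0 higher, beside 10.9% and 7.97% of genes. The median log2 difference of the 10 markers was −0.39, beside −0.0055 for all genes tested. Without Control 1 and 2, 3 of 10 were called lower, beside 4.9% of 15957 genes.

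**Figure D1:**
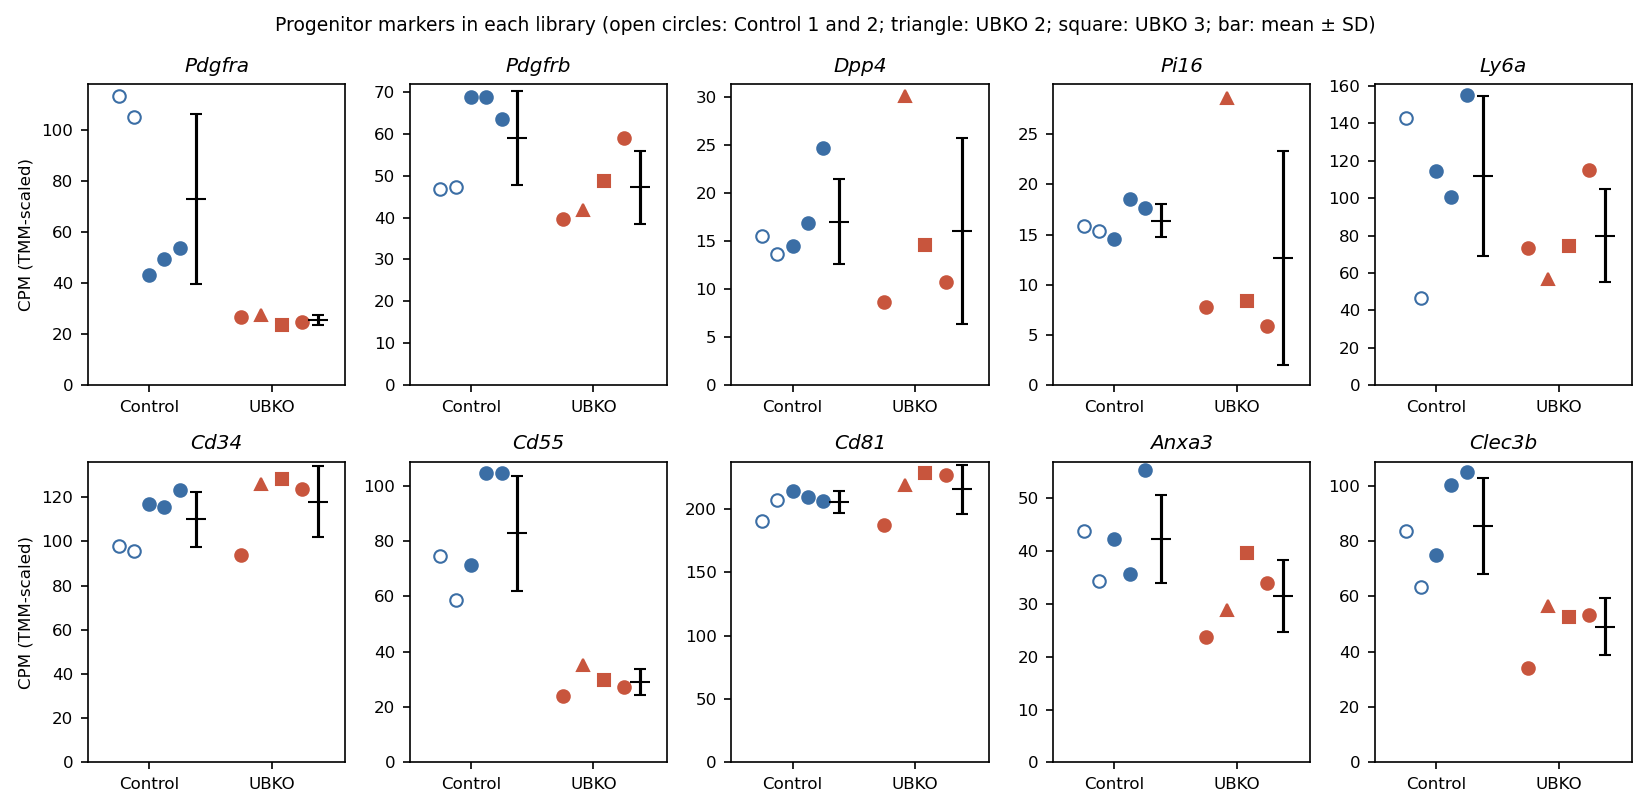
TMM-scaled CPM of each marker in each library (y axis, from 0; scales differ between panels), with the mean ± SD of each group as bars. Open circles are Control 1 and 2, the triangle is UBKO 2 and the square is UBKO 3. The UBKO libraries lie below every Control library for Pdgfra, Cd55 and Clec3b, and UBKO 2 is the highest library for Dpp4 and Pi16.

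The receptors were described first. Pdgfra (ENSMUSG00000029231, mm10 chr5:75152292-75198215, plus strand) encodes the receptor tyrosine kinase for PDGF-A, PDGF-B and PDGF-C. Its level was 113, 105, 43.2, 49.4 and 53.9 CPM in Control 1 to 5 and 26.8, 27.4, 23.4 and 24.7 CPM in UBKO 1 to 4. The groups did not overlap, the UBKO libraries were close to each other, and the libraries with epididymal transcripts were the highest. The means were 73.0 ± 33.4 CPM (SD, n = 5) and 25.6 ± 1.82 CPM (SD, n = 4). Pdgfra thus had a log2 difference of −1.51 (SE 0.30, 95% interval −2.19 to −0.84, edgeR adjusted p = 0.0141). Without Control 1 and 2 the Control mean was 48.8 ± 5.38 CPM (SD, n = 3), a 1.91-fold gap, and the log2 difference was −0.94 (SE 0.12, edgeR adjusted p = 0.00542). The adjusted p was 0.0543 without UBKO 3 and 0.0515 without UBKO 4, so the call from 9 libraries was lost without either. Control 1 and 2 also had higher sums of the lymphocyte list (142 and 140.1 CPM, against 15.9 to 28.4 CPM in Control 3 to 5). Those of the epithelial list were 687 and 745 CPM, against 34.6 to 49.9 CPM. Most of the lymphocyte sum came from genes other than Il7r, Cd79b, Trac and Cd4. These averaged 12.2 ± 5.98, 2.04 ± 0.40, 0.91 ± 0.25 and 0.90 ± 0.40 CPM in Control libraries (SD, n = 5). The part of either list in the Pdgfra level of Control 1 and 2 was not tested.

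Pdgfrb (ENSMUSG00000024620, mm10 chr18:61045150-61085061, plus strand), the receptor for PDGF-B and PDGF-D, lay the other way round among the Control libraries. It was at 46.8, 47.3, 68.8, 68.8 and 63.5 CPM in Control 1 to 5 and at 39.7, 41.7, 48.7 and 59.0 CPM in UBKO 1 to 4. Control 1 and 2 were the lowest Control libraries, and the groups overlapped only through them. Its log2 difference was −0.32 (SE 0.17, 95% interval −0.70 to 0.057, edgeR adjusted p = 0.247). Without Control 1 and 2 the means were 67.0 ± 3.08 CPM (SD, n = 3) and 47.3 ± 8.71 CPM (SD, n = 4), every UBKO library was below every Control library, and the log2 difference was −0.52 (edgeR adjusted p = 0.0747).

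Without those 2 libraries 4 of 10 markers (Pdgfra, Pdgfrb, Cd55 and Clec3b) were lower in every UBKO library than in any Control library, as were 12.2% of genes. With all 9 libraries this held for 3 markers and 9.11% of genes.

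Cd55 (ENSMUSG00000026399, mm10 chr1:130439027-130462744, minus strand) encodes decay-accelerating factor, a lipid-anchored protein that shields cells from complement. It was at 74.6, 58.8, 71.3, 104 and 105 CPM in Control 1 to 5 and at 24.0, 35.1, 29.9 and 27.4 CPM in UBKO 1 to 4. The groups were far apart, and Control 1, 2 and 3 lay below Control 4 and 5. The means were 82.7 ± 20.7 CPM (SD, n = 5) and 29.1 ± 4.68 CPM (SD, n = 4). On the log2 scale Cd55 differed by −1.51 (SE 0.20, 95% interval −1.95 to −1.07, edgeR adjusted p = 0.00238). It was −1.69 without Control 1 and 2 (edgeR adjusted p = 0.00434), when the Control mean was 3.21-fold higher. Of the 10 markers, Cd55 was the one called in all 9 fits that left out 1 library, with edgeR adjusted p from 0.00227 to 0.0140. Of the 50-base stretches in its transcripts, 9.12% also occur in Cd55b or Gm16083, so a small share of its reads could not be placed with certainty.

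Clec3b (ENSMUSG00000025784, mm10 chr9:123150946-123157432, plus strand) encodes tetranectin, a secreted lectin that binds plasminogen. It was at 83.7, 63.4, 75.0, 100.3 and 105 CPM in Control 1 to 5 and at 34.0, 56.5, 52.6 and 53.3 CPM in UBKO 1 to 4. The groups did not overlap, but Control 2 and UBKO 2 lay near each other. The means were 85.5 ± 17.4 CPM (SD, n = 5) and 49.1 ± 10.2 CPM (SD, n = 4). For Clec3b the log2 difference was −0.80 (SE 0.19, 95% interval −1.23 to −0.37, edgeR adjusted p = 0.0277), and −0.94 without Control 1 and 2 (edgeR adjusted p = 0.0322). The call was less firm than that of Cd55: it was lost without Control 1, 4 or 5 or UBKO 1, 3 or 4, one at a time, with edgeR adjusted p from 0.0539 to 0.0712.

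The promoters of Pdgfra and Cd55, which fell, are shown beside those of Cd34 and Cd81, which did not pass, so that the sequences of markers on both sides of the test can be read together. RefSeq (GRCm38.p6) gave a promoter for 6 of the 10 markers, and each run below is the 250 bases before the annotated start, 5′ to 3′ on the gene's strand. Capitals mark the matches to 8 motifs searched on both strands, which did not overlap in these promoters.
Pdgfra, chr5:75152001-75152250, plus strand: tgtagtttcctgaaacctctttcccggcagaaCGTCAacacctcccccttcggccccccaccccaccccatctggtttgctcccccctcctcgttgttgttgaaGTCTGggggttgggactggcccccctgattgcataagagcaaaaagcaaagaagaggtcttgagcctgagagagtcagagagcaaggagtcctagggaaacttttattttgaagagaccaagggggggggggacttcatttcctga
Cd55, chr1:130462745-130462994, minus strand: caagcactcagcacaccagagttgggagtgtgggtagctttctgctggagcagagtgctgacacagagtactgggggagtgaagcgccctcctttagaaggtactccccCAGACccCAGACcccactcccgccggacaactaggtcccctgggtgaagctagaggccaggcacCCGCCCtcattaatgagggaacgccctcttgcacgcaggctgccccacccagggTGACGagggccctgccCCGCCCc
Cd34, chr1:194938571-194938820, plus strand: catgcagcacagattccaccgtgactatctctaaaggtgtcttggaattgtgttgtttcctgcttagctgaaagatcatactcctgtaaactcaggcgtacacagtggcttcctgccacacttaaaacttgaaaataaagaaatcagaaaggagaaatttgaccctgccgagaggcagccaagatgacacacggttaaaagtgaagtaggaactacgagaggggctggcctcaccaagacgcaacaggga
Cd81, chr7:143052500-143052749, plus strand: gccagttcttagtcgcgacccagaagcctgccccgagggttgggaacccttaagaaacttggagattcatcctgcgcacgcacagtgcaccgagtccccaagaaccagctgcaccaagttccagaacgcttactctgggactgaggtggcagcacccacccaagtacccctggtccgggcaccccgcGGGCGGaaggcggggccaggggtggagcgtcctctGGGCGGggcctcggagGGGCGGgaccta

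The GC content was 54.4% for Pdgfra, 64% for Cd55, 46.4% for Cd34 and 65.6% for Cd81, beside a median of 52.4% over 32851 promoters. The SMAD motif CAGAC was in the windows of Pdgfra, Cd55 and Pi16 and in 42.2% of all promoters. The CREB motif TGACG was in those of Pdgfra and Cd55 and in 17.8% of all. The GC box GGGCGG was in those of Cd55 and Cd81 (32.7% of all), the TATA box TATAAA (12.4%) and the TEAD motif CATTCC (12.6%) in that of Dpp4, and CCAAT (33.8%) in that of Pi16. The TCF/LEF motif CTTTGAT (3.21% of all) and the AP-1 motif TGANTCA (6.75%) were in none of the 6, which says only that these letters are not in these windows.

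Dpp4 and Pi16, the markers that define the interstitial progenitors, depended on UBKO 2. Dpp4 (ENSMUSG00000035000, mm10 chr2:62330073-62412231, minus strand) encodes a membrane peptidase that cleaves incretins and chemokines. It was at 15.5, 13.7, 14.5, 16.9 and 24.7 CPM in Control 1 to 5 and at 8.66, 30.2, 14.6 and 10.8 CPM in UBKO 1 to 4. UBKO 2 was the highest of all 9 libraries and UBKO 1 and 4 were the lowest. For Dpp4 the log2 difference was −0.086 (SE 0.35, 95% interval −0.86 to 0.69, edgeR adjusted p = 0.903), and −0.23 without Control 1 and 2 (edgeR adjusted p = 0.801). Without UBKO 2 it was −0.59 (edgeR adjusted p = 0.141).

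Pi16 (ENSMUSG00000024011, mm10 chr17:29317680-29330593, plus strand) encodes a peptidase inhibitor of the CAP superfamily. It was at 15.8, 15.4, 14.5, 18.5 and 17.6 CPM in Control 1 to 5 and at 7.81, 28.6, 8.39 and 5.91 CPM in UBKO 1 to 4. The Control libraries were close together, UBKO 1, 3 and 4 were all below them, and UBKO 2 was above them. The log2 difference was −0.37 over all libraries (SE 0.41, 95% interval −1.29 to 0.56, edgeR adjusted p = 0.608) and −0.42 without Control 1 and 2 (edgeR adjusted p = 0.690). Without UBKO 2 it was −1.15 (edgeR adjusted p = 0.00596), past the threshold with 6.99% of genes lower in that fit. Without Control 1 and 2 and UBKO 2 it was −1.18 (edgeR adjusted p = 0.0130), and 4 of 10 markers and 5.59% of genes were called lower. UBKO 2 was singled out by its own Pi16 value, so the smaller p in the fits without it gives no support. The 3 UBKO libraries left had a mean of 7.37 ± 1.3 CPM, against 16.9 ± 2.09 CPM in 3 Control libraries (SD, n = 3 each). That these do not overlap follows from leaving out UBKO 2, the UBKO library above the Control libraries.

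UBKO 2 also differed from the other UBKO libraries on lists of other cell types. Its summed epithelial markers were 355 CPM, against 16.2 to 24.6 CPM in the other UBKO libraries, and its summed mesothelial markers were 353 CPM, against 104 to 204 CPM. Krt8 and Krt18 are on both lists, so these sums are not separate observations. Over the UBKO libraries Krt18 was at 13.5 ± 23.8 CPM, whereas the SDs of Msln, Upk1b, Muc16 and Wt1 were 0.80 to 5.06 CPM. The summed interstitial progenitor genes of UBKO 2, a list that holds no marker described here, were 803 CPM, against 484 to 645 CPM. The part of these cell types in the Dpp4 and Pi16 values of UBKO 2 was not tested.

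Anxa3 and Ly6a were lower on average in UBKO without passing. Anxa3 (ENSMUSG00000029484, mm10 chr5:96793339-96845966, plus strand) encodes a calcium-dependent phospholipid-binding annexin. It was at 43.8, 34.4, 42.4, 35.6 and 55.4 CPM in Control 1 to 5 and at 23.8, 28.9, 39.6 and 34.1 CPM in UBKO 1 to 4. UBKO 1, 2 and 4 lay below all Control libraries and UBKO 3 lay among them. For Anxa3 the log2 difference was −0.42 (SE 0.18, 95% interval −0.83 to −0.018, edgeR adjusted p = 0.159), and −0.51 without Control 1 and 2 (edgeR adjusted p = 0.193).

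Ly6a (ENSMUSG00000075602, mm10 chr15:74994877-74998031, minus strand) encodes Sca-1, which endothelial cells carry as well. It was at 143, 46.4, 115, 101 and 155 CPM in Control 1 to 5 and at 73.5, 56.8, 74.4 and 115 CPM in UBKO 1 to 4. Control 2 was the lowest of all libraries, and the groups overlapped. The log2 difference was −0.49 (SE 0.33, 95% interval −1.21 to 0.24, edgeR adjusted p = 0.367), and −0.64 without Control 1 and 2 (edgeR adjusted p = 0.167). Its values are uncertain, because 19.0% of its 50-base stretches also occur in Ly6c1, Ly6c2, Ly6i or I830127L07Rik.

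Cd34 and Cd81 did not pass, and their intervals were the narrowest of the 10 markers. Cd34 (ENSMUSG00000016494, mm10 chr1:194938819-194961279, plus strand) encodes a sialomucin shared by progenitors and endothelium. It was at 97.9, 95.7, 117, 116 and 123 CPM in Control 1 to 5 and at 93.9, 125.8, 128 and 124 CPM in UBKO 1 to 4. UBKO 1 was the lowest of all libraries and the other UBKO libraries were the highest. The log2 difference was 0.10 (SE 0.13, 95% interval −0.18 to 0.38, edgeR adjusted p = 0.652), −0.021 without Control 1 and 2 (edgeR adjusted p = 0.943) and −0.28 under scaling by total counts.

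Cd81 (ENSMUSG00000037706, mm10 chr7:143052739-143067934, plus strand) encodes a tetraspanin found on many cell types. It was at 191, 207, 214, 210.0 and 206 CPM in Control 1 to 5 and at 187, 219, 229 and 227 CPM in UBKO 1 to 4. UBKO 1 was the lowest library and the other UBKO libraries were the highest, as for Cd34. The log2 difference was 0.070 (SE 0.096, 95% interval −0.14 to 0.28, edgeR adjusted p = 0.683), 0.027 without Control 1 and 2 (edgeR adjusted p = 0.908) and −0.32 under scaling by total counts (edgeR adjusted p = 0.0485). Under that scaling 6 markers (Pdgfra, Cd55, Clec3b, Pdgfrb, Anxa3 and Cd81) were called lower, beside 27.8% of all genes tested.

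**Figure D2:**
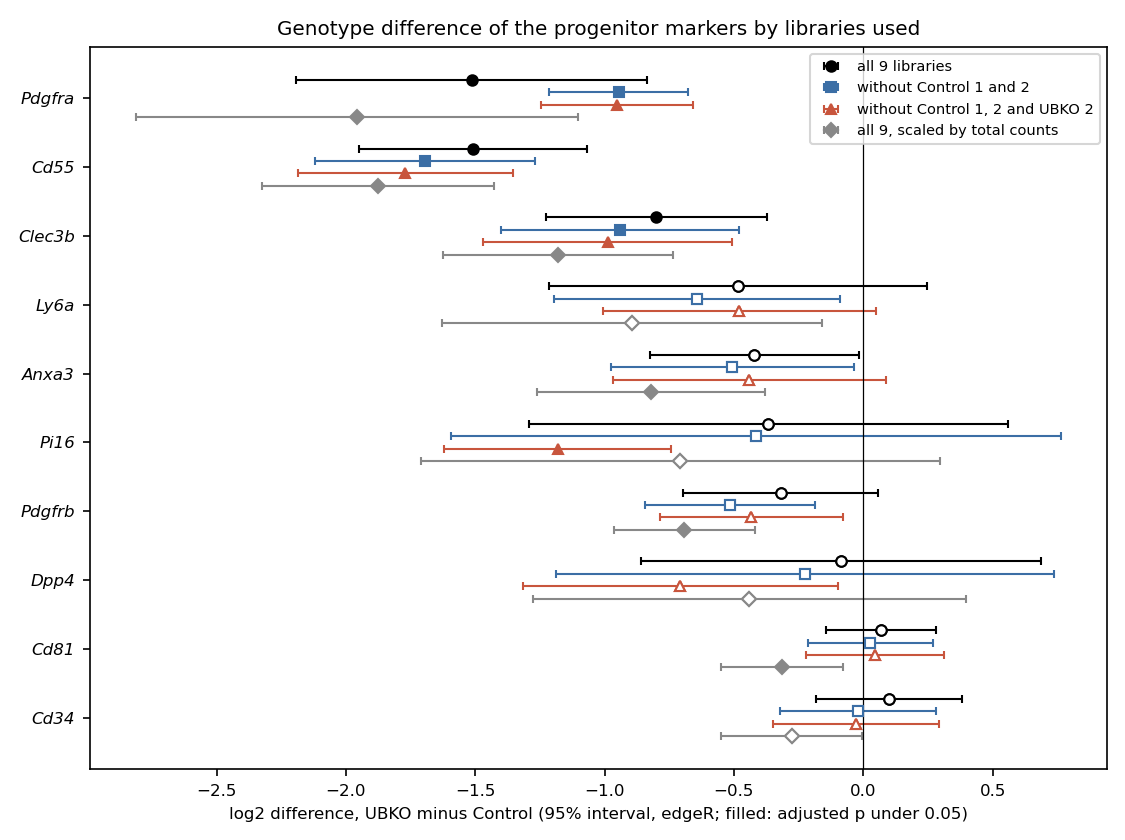
Log2 difference of each marker, UBKO minus Control, with its 95% interval from edgeR (x axis), for 4 choices of libraries and scaling given in the legend. Filled symbols have an adjusted p under 0.05. Pdgfra, Cd55 and Clec3b are filled under each choice. Pi16 is filled once Control 1 and 2 and UBKO 2 are left out, but UBKO 2 was singled out by its own Pi16 value.

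The authors' deposited table gave the same 3 markers a q-value under 0.05, as it did for 3.5% of genes in this direction. In the authors' deposited table the log2 ratio was −1.85 for Cd55 (q-value 1.83e-06), −1.92 for Pdgfra (q-value 0.000183) and −1.15 for Clec3b (q-value 0.0400). The other markers had q-values from 0.567 to 1 in the authors' deposited table.

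Between genes, levels were compared as CPM per kilobase of GENCODE exon. In Control fat the order of the level per kilobase was Ly6a (92.9 ± 35.4), Clec3b (86.2 ± 17.5), Cd81 (71.4 ± 3.09), Cd55 (17.0 ± 4.27), Cd34 (15.1 ± 1.70), Anxa3 (11.6 ± 2.30), Pdgfrb (10.8 ± 2.04), Pdgfra (7.28 ± 3.33), Dpp4 (2.70 ± 0.70) and Pi16 (2.57 ± 0.26), each as mean ± SD with n = 5. Neighbours in this order lay within the sum of their SDs, except Cd81 above Cd55 and Pdgfra above Dpp4. In Control 3 to 5 alone Pdgfra was at 4.87 ± 0.54 and Pdgfrb at 12.2 ± 0.56 per kilobase (SD, n = 3). Clec3b then also lay above Cd81, Cd34 above Pdgfrb, and Anxa3 above Pdgfra by more than the sum of their SDs. In UBKO fat the level per kilobase was 5.99 ± 0.964 for Cd55 and 2.55 ± 0.182 for Pdgfra, against 16.2 ± 2.21 for Cd34, 8.63 ± 1.59 for Pdgfrb and 2.54 ± 1.54 for Dpp4 (mean ± SD, n = 4). Cd55 thus stood above Cd34 in the Control order and below it, Anxa3 and Pdgfrb in the UBKO order. The lengths that the authors' FPKM values imply are 1 to 2.86 times the GENCODE lengths, so the order between genes depends on the annotation.

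Ratios between markers of the same library do not depend on how libraries are scaled. Relative to Pdgfra, on counts per length, the mean log2 ratio of Cd34 was 1.31 ± 0.81 in Control and 2.80 ± 0.28 in UBKO libraries (SD, n = 5 and n = 4), a difference of 1.49 (two-sided exact permutation p = 0.0159, adjusted over 9 ratios p = 0.0714). That of Cd81 was 3.33 ± 0.70 in Control and 4.80 ± 0.21 in UBKO libraries, a difference of 1.46 with the same p and adjusted p in the exact permutation test. The differences were smaller without Control 1 and 2, at 0.91 for Cd34 and 0.96 for Cd81, each with an exact permutation p of 0.0286 (adjusted p = 0.0857). In both comparisons every UBKO library had a higher ratio than any Control library. Pdgfra itself was called lower in UBKO and Cd34 and Cd81 were not, so these ratios are not separate from the fall of Pdgfra. Of the 9 ratios, 0 passed after adjustment and 2 had an unadjusted exact permutation p under 0.05 in a design of 5 against 4 libraries that allows no p below 0.00794.

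Cd55 and Pdgfra fell by like amounts with all libraries, and their ratio differed by −0.089 on the log2 scale (exact permutation p = 0.865). That ratio was set by the libraries with epididymal transcripts: it was 0.66 and 0.43 in Control 1 and 2, 1.99, 2.34 and 2.22 in Control 3 to 5, and 1.11 to 1.62 in UBKO libraries. Without Control 1 and 2 the UBKO libraries were all lower, by −0.74 on the log2 scale (exact permutation p = 0.0286, the smallest that 35 splits allow, adjusted p = 0.0857). The Clec3b to Pdgfra ratio differed by −0.011 in that comparison (exact permutation p = 1).

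**Figure D3:**
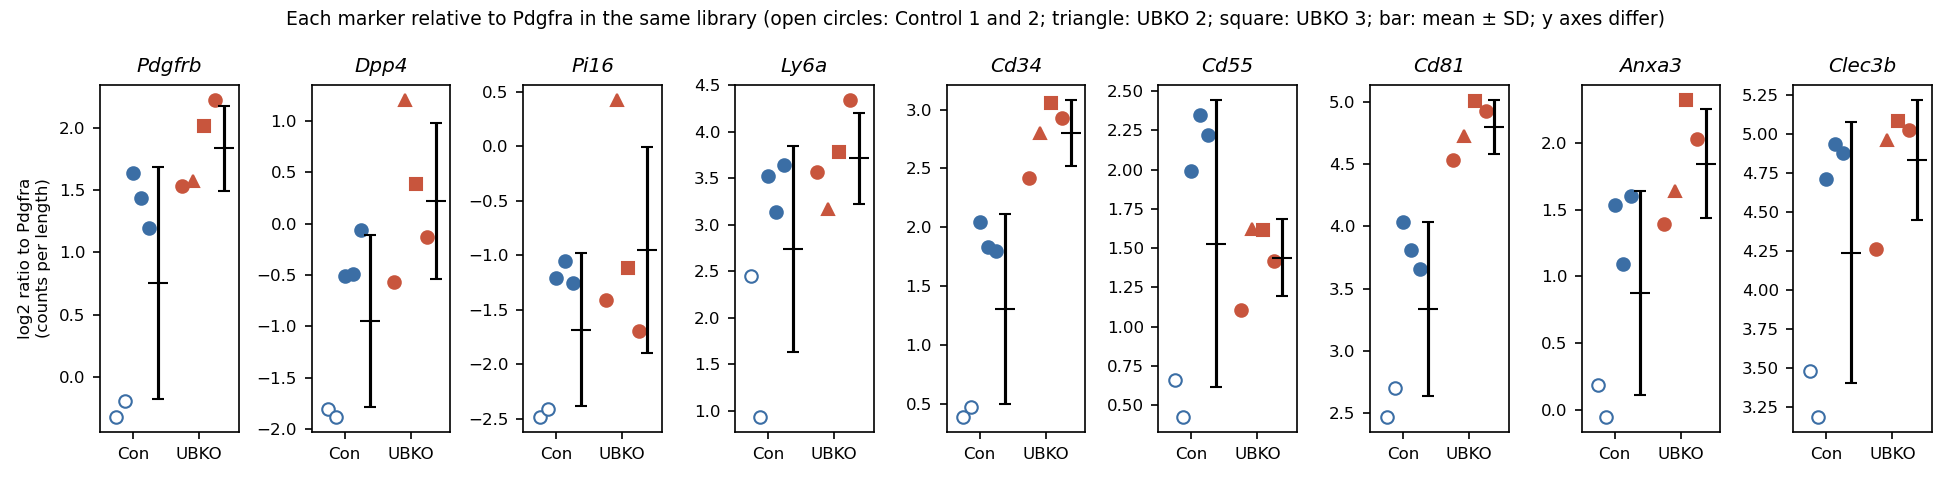
Log2 ratio of each marker to Pdgfra in the same library, from counts per length (y axes differ), with the mean ± SD of each group. Open circles are Control 1 and 2, the triangle is UBKO 2 and the square is UBKO 3. Cd34 and Cd81 are higher in every UBKO library than in any Control library, and for each of the 9 markers Control 1 and 2 both lie below all other libraries.

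The markers were also set against the mean log2 level of 14 fibroblast matrix genes in the same library, a list that itself was lower in UBKO. By this measure 4 of 10 ratios passed, with p adjusted over the 10. The Cd55 ratio was −0.97 ± 0.10 in Control and −1.56 ± 0.11 in UBKO libraries (exact permutation adjusted p = 0.0265), so Cd55 was lower by more than the matrix genes were. Cd34 (difference 0.99) and Cd81 (difference 0.96) were higher relative to these genes, both with an exact permutation adjusted p of 0.0265, and so was Dpp4 (difference 0.67, exact permutation adjusted p = 0.0397). The Dpp4 ratio was highest in UBKO 2 (−2.13), and the groups overlapped, with UBKO 1 (−3.25) below Control 5 (−3.20). It was not tested without UBKO 2. The Clec3b ratio was 1.74 ± 0.043 in Control and 1.83 ± 0.27 in UBKO libraries, a difference of 0.095 (exact permutation adjusted p = 0.476). In an alternative added after seeing the data, without Control 1 and 2, 0 of 10 ratios passed. The differences of Cd55 (−0.65), Cd34 (1.002) and Cd81 (1.06) were then at an exact permutation p of 0.0286, the smallest that 3 against 4 libraries allow (adjusted p = 0.0952), and that of Dpp4 was 0.67 (adjusted p = 0.286). The Pdgfra ratio differed by −0.50 with all libraries and by 0.094 without Control 1 and 2, and passed in neither (exact permutation adjusted p = 0.456 and 0.698).

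Other genes of the progenitor states were counted beside the shares over all genes tested, 7.56% lower and 3.88% higher with edgeR. At an unadjusted p under 0.05 these shares were 16.1% and 12.4%, and with DESeq2 10.9% and 7.97%. Of 19 interstitial progenitor genes tested, 7 were called lower and 0 higher (edgeR, DESeq2 10 and 0, unadjusted p under 0.05 for 10 and 0), with a median log2 difference of −0.74, or −0.69 without Control 1 and 2. Emilin2, a matrix glycoprotein gene, fell by 2.09 on the log2 scale (edgeR adjusted p = 0.00138). Cd248, which encodes the stromal protein endosialin, fell by 1.49 (edgeR adjusted p = 0.00767), Smpd3, a sphingomyelinase gene, fell by 1.37 (edgeR adjusted p = 0.00787), and the semaphorin gene Sema3c fell by 0.74 (edgeR adjusted p = 0.00978). The summed level was 894 to 1351 CPM in Control and 484 to 803 CPM in UBKO libraries, and the groups did not overlap.

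Of 15 committed preadipocyte genes, 2 were called higher and 1 lower, with a median of −0.27. The 1 called lower is close to the share over all genes tested. Pparg, the master regulator of adipocyte formation, which adipocytes also express, rose by 0.78 (edgeR adjusted p = 0.0423). Mme, a membrane peptidase gene, rose by 0.83 (edgeR adjusted p = 0.0496), and the collagen gene Col5a3 fell by 0.61 (edgeR adjusted p = 0.0378). Neither rise passed without Control 1 and 2 (edgeR adjusted p = 0.0747 and 0.0608). Of 12 genes of adipogenesis-regulatory stromal cells, 3 were lower and 0 higher (edgeR, unadjusted p under 0.05 for 4 and 2, DESeq2 4 and 2), with a median of 0.052. The 3 were Clec11a (−1.42), Bgn (−0.68) and Gdf10 (−0.58), with edgeR adjusted p from 0.0315 to 0.0409, and Clec11a did not pass without Control 1 and 2 (0.117). F3, named by the same rule, went the other way, higher in UBKO by 0.52 without passing (edgeR adjusted p = 0.0652).

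Of 14 fibroblast matrix genes, 9 were lower and 0 higher (edgeR, unadjusted p under 0.05 for 10 and 0, DESeq2 9 and 0), with a median of −0.99, or −1.04 without Control 1 and 2. Col6a3 (−1.14), Col5a1 (−1.25), Fbln2 (−1.20) and Fstl1 (−1.11) had the smallest p, with edgeR adjusted p from 0.00238 to 0.00673. The summed level was 3607 to 5856 CPM in Control and 2087 to 3072 CPM in UBKO libraries. Of 19 progenitor transcription factors, Tcf21, a factor of white fat progenitors, was the 1 called lower (−1.03, edgeR adjusted p = 0.0264), and Nr2f2 the 1 called higher (0.41, edgeR adjusted p = 0.0452). The call of Nr2f2 was lost without Control 1 and 2 (edgeR adjusted p = 0.132), and its difference was 0.037 under scaling by total counts. The median of the 19 was −0.050, and 1 call in each direction is close to the shares over all genes tested.

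**Figure D4:**
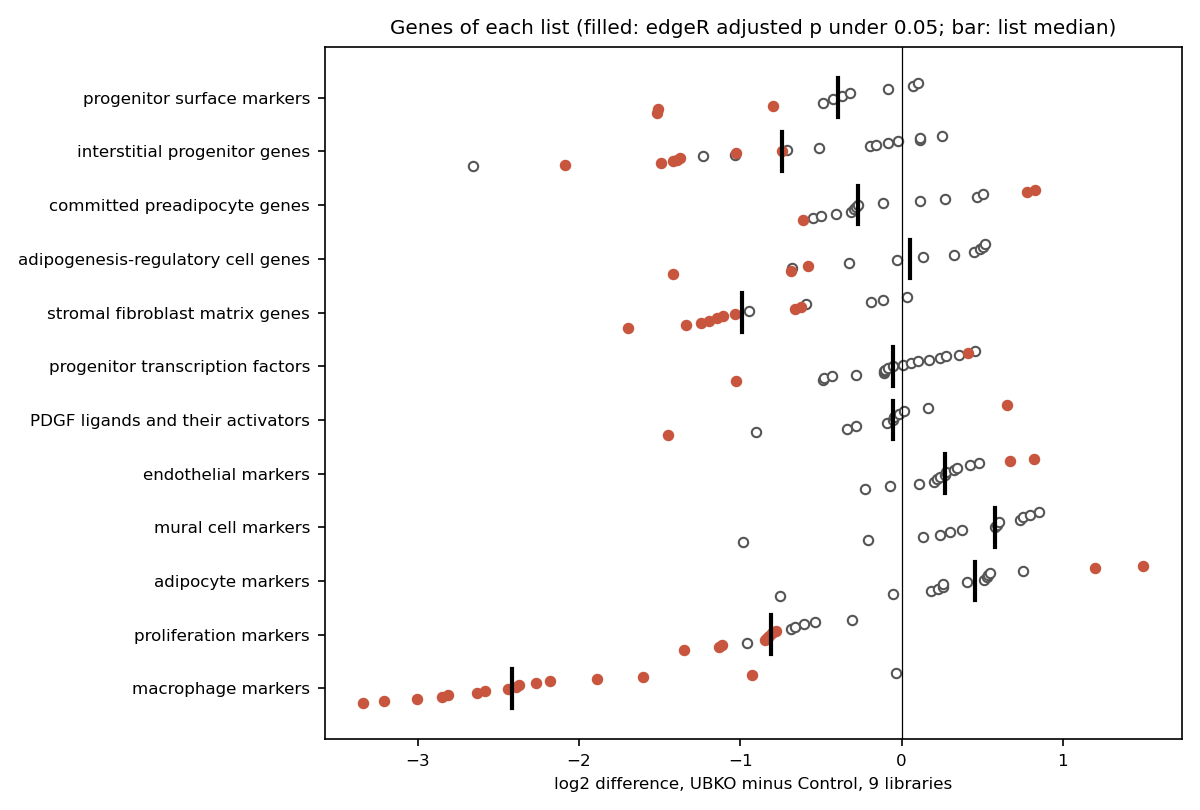
Log2 difference, UBKO minus Control, of each tested gene (point) of the progenitor lists and of cell type marker lists (rows), over 9 libraries with TMM scaling. Filled points have an edgeR adjusted p under 0.05 and the bar is the list's median. The medians are −0.39 for the surface markers, −0.99 for fibroblast matrix genes and −2.42 for macrophage markers.

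The ligands and relatives of the markers were counted too, beside the same shares over all genes tested. Of 11 PDGF ligands and their activators, Pdgfb, whose product binds both receptors, rose by 0.65 (edgeR adjusted p = 0.0203; 0.0757 without Control 1 and 2). Plau, the gene of urokinase, a plasminogen activator, had a difference of −1.45 (edgeR adjusted p = 0.00239), and is also in the plasminogen list, where Serpine2 was the other of 2 called lower among 7. Of 18 tetraspanins and CD81 partners, 5 were called lower, among them the leukocyte tetraspanins Cd53 (−2.53) and Cd37 (−1.81), the integrin gene Itga4 (−1.64) and the CD81 partner Igsf8 (−1.06), with edgeR adjusted p from 0.00196 to 0.00239. Of 9 other annexins, Anxa2 (−0.85, edgeR adjusted p = 0.0255) and Anxa1 (−0.57, edgeR adjusted p = 0.0296) were lower, and neither passed without Control 1 and 2 (edgeR adjusted p = 0.0607 and 0.0894).

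Among 10 DPP4 relatives and ligands, the peptidase genes Dpp9 (−0.38) and Dpp3 (−0.30) were called lower, with edgeR adjusted p of 0.0371 and 0.0491 (0.115 and 0.151 without Control 1 and 2), and among 4 CAP relatives of Pi16 both Glipr1 (−1.92) and Glipr2 (−0.84) were, at 0.0119 and 0.0120. In the Ly6 family, in the CD34 family and among complement regulators, 7 genes tested in each, edgeR called 0. At an unadjusted p under 0.05 there were 2 higher in the Ly6 family and 0 in the other lists, and DESeq2 called 1 higher in the Ly6 family and 0 in the others. Ly6c1, which shares sequence with Ly6a, had a log2 difference of 0.36 (edgeR adjusted p = 0.202).

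Markers of other cell types that can carry these genes were also counted beside the same shares over all genes tested. Summed macrophage markers were 1218 to 2569 CPM in Control and 344 to 424 CPM in UBKO libraries, and 15 of 16 were called lower with a median of −2.42. Of 14 proliferation markers 8 were lower (2 without Control 1 and 2). Endothelial markers, of which Kdr (0.82) and Emcn (0.67) were called higher among 14 (Kdr alone without Control 1 and 2), summed to 1225 to 1973 CPM in Control and 1682 to 2297 CPM in UBKO libraries. Mural cell markers, which share Pdgfrb, summed to 663 to 1080 CPM and 1026 to 1466 CPM, with a median of 0.58 (0.33 without Control 1 and 2), and edgeR called 0 of 13 (7 higher and 1 lower at an unadjusted p under 0.05, DESeq2 4 and 1). Adipocyte markers summed to 9371 to 19726 CPM and 17312 to 23676 CPM, with 2 of 14 called higher and a median of 0.46 (0.15 without Control 1 and 2). Of 8 lymphocyte and 6 neutrophil and mast cell markers 1 each was lower, and edgeR called 0 of 11 mesothelial and 0 of 9 epithelial markers (unadjusted p under 0.05 for 1 and 1, DESeq2 0 and 1). No gene of these lists was at 0 in all libraries. The part of each cell type in the marker values was not tested.

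The genes whose log2 CPM followed each marker most closely over the 9 libraries are given as a description, with the libraries shared by both sides. They are the highest of 10834 tested genes whose mean FPKM reached 1 in either group, leaving out predicted genes (Gm and Rik names). Pdgfra was nearest to Dok1 (Pearson r = 0.994, or 0.992 over the 7 libraries without Control 1 and 2), an adaptor of tyrosine kinase signalling, and also followed Emb (0.992). Cd55 was nearest to Cyp4f18 (0.994), the collagen gene Col6a1 (0.991) and Fstl1 (0.990), and Clec3b to C1qtnf6 (0.983), Lsp1 (0.982) and the collagen gene Col6a6 (0.977). Dpp4 was nearest to the matrix genes Fbln1 (0.953) and Fmod (0.950) and to Ntn4 (0.937), and Pi16 to Itgbl1 (0.962), Ckb (0.958) and Rspo1 (0.958), a secreted enhancer of Wnt signalling. Pdgfrb was nearest to Cdkn1c (0.951), Prelp (0.948) and Itih5 (0.945), Cd34 to Rps19-ps3 (0.967), Ogn (0.941) and Gpam (0.937), and Ly6a to Rai14 (0.953), Ackr1 (0.914) and Trim21 (0.913). Cd81 was nearest to Pmp22 (0.929), Hsd3b7 (0.919) and Atl2 (0.916), and Anxa3 to Atp6v0c-ps2 (0.969), Ckap2 (0.967) and Crlf3 (0.926). No gene was among the nearest 3 of more than 1 marker.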

How the data were processed

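Read counts in whole numbers and FPKM were deposited by the authors for 28481 genes per library, together with their own log2 ratio, p-value and q-value. Per the submitters' processing notes, HISAT2, SAMtools 1.3.1, Cuffdiff and the build mm10 were used. The sources used here give no counter, annotation, strand setting or test behind the q-values. Per the labels' protocols, total RNA on RNeasy columns was made into paired-end TruSeq libraries. The deposited FPKM was checked against the counts and follows from them: over 12848 genes the gene length implied by both was the same in every library (largest coefficient of variation 1.61e-05). Of the gene IDs, 99.65% were in GENCODE M21.

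The test was that of edgeR 4.0.16 (R 4.3.3; filterByExpr, TMM, glmQLFit and glmQLFTest on genotype, two-sided, Benjamini-Hochberg at 0.05 over 16123 genes). Ratios between markers used counts per length plus 0.5 count and an exact permutation test (scipy 1.17.1). Alternatives were DESeq2 1.42.0 size factors and Wald test, total-count scaling, no filter, limma 3.58.1 on log2(FPKM + 1) and log2(FPKM + 0.1) or with array weights, each library left out, a replicate block, and fits without Control 1 and 2 or also UBKO 2. Ratios to fibroblast matrix genes without Control 1 and 2 were added after seeing the data. On counts simulated for 16123 genes in these libraries, 50% of genes changed 2-fold and 93% of those changed 4-fold were recovered, with 6 false among 149 calls. Precision is set by totals of 15308480 to 17632709 counts per library. No replicates were duplicates: chi-square per degree of freedom was at least 17.0 for every pair.

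The markers and all lists were chosen with earlier results of these data known. Named genes were the 10 markers, Ctnnb1, up to 4 genes with the smallest p of each list, and the 3 genes most like each marker. Of these, the ones of lists described by counts alone are not all printed, and 1 gene most like a marker is not reported here. Protein sequences were not used here.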

Additional observations from a re-analysis of the deposited data

Results flagged for a closer look

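In the UBKO group, Pi16 was at 28.61 CPM in UBKO 2, and the gap to the nearest of the other 3 libraries took 0.891 of the group's range. Cd34 was at 93.88 CPM in UBKO 1, the lowest library, with a gap of 0.860 of the range to the nearest other UBKO library. Both were singled out because 1 sample lay far from the others of its group. Chance flags about 1 in 20 groups, and 22 groups were examined.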

How the results depend on the processing

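Cd55 was called lower under every alternative run, whereas the other calls depended on libraries and scaling. The markers called lower numbered 6 under total-count scaling, beside 27.8% of genes. They numbered 6 with limma on log2(FPKM + 1), 6 on log2(FPKM + 0.1), and 1 to 4 when 1 library was left out. The limma fits and those without 1 library filtered genes anew. No share over all genes is set beside these counts or those of the replicate block, so they are not read as a result about the markers. Genes called lower (1219) numbered 4482 under total-count scaling, 810 with no filter, 782 without Control 1 and 2, 3748 and 3864 with limma, and 604 to 1495 with 1 library left out. Genes called higher (626) numbered 236 under total-count scaling, 300 with no filter, 240 without Control 1 and 2, 411 without UBKO 2 as well, 1285 with DESeq2, 277 and 274 with limma, 295 in the authors' deposited table, and 152 to 954 with 1 library left out. With the fibroblast matrix genes as reference 4 ratios passed, against 0, and 0 did so without Control 1 and 2. The log2 difference of Cd34 turned to −0.28 (total counts), −0.021 and −0.028 (without Control 1 and 2, and also UBKO 2), −0.24 and −0.26 (limma) and −0.25 (the authors' deposited table). That of Cd81 turned to −0.32, −0.28 and −0.29 (limma) and −0.29. That of Dpp4 ran from −0.59 to 0.12 with 1 library left out, and the Cd55 to Pdgfra ratio from −0.36 to 0.11. The Clec3b to Pdgfra ratio turned to −0.011 and −0.054, and the Pi16 to Pdgfra ratio to −0.24, without those libraries. The cause was not tested, apart from the fewer libraries. Replicate numbers paired no samples: deviations of same-numbered libraries correlated at −0.18 to 0.54 over 4 pairs, and 1 UBKO library was nearest to its own number. With the replicate block 2 markers, 509 genes lower and 212 higher were called, and Clec3b had an edgeR adjusted p of 0.1001. Leaving out Control 1 and 2 and UBKO 2 allows no exact permutation p below 0.1.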
